A study of Mus musculus with 9 samples.

Results

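The clustered histone genes are the genes whose symbol opens with Hist1h, Hist2h, Hist3h or Hist4h. They were taken from the whole table by that symbol, leaving out names that end in -ps and a number, which gave 69 of 54146 genes. By class these are 6 genes of the linker histone H1 and, of the core histones, 19 of H2A, 19 of H2B, 12 of H3 and 13 of H4. In GENCODE release M21 (GRCm38), 55 lie in the Hist1 cluster on chromosome 13, 10 in Hist2 on chromosome 3, 3 in Hist3 on chromosome 11 and 1, Hist4h4, on chromosome 6. Coding models number 67, and the other two, Hist3h2bb-ps and Hist1h2aj, are annotated as pseudogenes.

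RNA was measured in eosinophils, granulocytes of type 2 immunity, sorted from infiltrates of the quadriceps of adult mice as live cells with CD45 and Siglec-F and without CD11c, Gr1 or MHC class II. There were 3 groups of 3 libraries, described in the design as biological replicates: IL5Tg, with a transgene for interleukin-5, the main growth factor of eosinophils; mdx, dystrophin-deficient mice with a dystrophic muscle; and mdx_IL5Tg, with both. The strain field reads mdx for all 9 libraries, IL5Tg included, which conflicts with the titles, and the groups here follow the titles. No source used here names the driver of the transgene, exact ages or any pooling of animals, and no group without either allele was analysed here.

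Replication-dependent histone genes supply the protein that packages newly copied DNA. Their mRNA rises at the start of S phase and is degraded when DNA synthesis ends, so a resting granulocyte needs little of it, while dividing precursors in the marrow need much. Most of these mRNAs end not in a poly(A) tail but in a short hairpin, which is bound by the stem-loop binding protein Slbp. A few of the genes also give polyadenylated mRNA in cells that have stopped dividing. Whether these libraries were selected for poly(A) tails is not reported here. The counts below would depend on such selection, and may not follow the total histone mRNA.

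The hairpin is shown because it is the feature that sets these transcripts apart from other mRNAs. Of the 52 members whose annotated transcript runs at least 20 bases past the stop codon, 44 held a 16-base hairpin there. Other coding transcripts were searched over their whole length with no such limit, and 75 of 58725 (0.128%) held one. The search required an opening GG, a loop of T, C or A with TT in its middle, and perfect pairing. Hairpins of other forms would have been missed. There were 6 forms, printed 5′ to 3′ as DNA with the loop in capitals, and only the loop's last base and 2 base pairs of the stem varied.
Hist1h1c, Hist1h2bg, Hist1h3b and 23 others: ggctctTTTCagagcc
Hist1h4c, Hist1h4f, Hist1h4n and 4 others, all H4: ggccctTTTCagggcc
Hist1h3c, Hist1h3e, Hist1h3f, Hist1h2bb, Hist1h2bk and Hist1h1t: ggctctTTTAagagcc
Hist1h4i and Hist2h4: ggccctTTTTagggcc
Hist1h4b and Hist1h4j: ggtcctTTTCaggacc
Hist2h2ac: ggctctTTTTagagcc

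Promoters are shown for 4 members with different patterns below, from the RefSeq windows of GRCm38.p6, which matched 62 members. Each is the stretch of up to 250 bases before the start site that lies outside the annotated genes of the family, read along the gene's strand. Capitals mark, on either strand, the letters CCAAT, the TATA box letters TATAAA, and the octamer ATTTGCAT, which is known to be bound by Oct factors. The H2B gene's stretch is the interval it shares with Hist1h2ae, which is transcribed away from it.
Hist1h2bg, chr13:23571221-23571395, + strand: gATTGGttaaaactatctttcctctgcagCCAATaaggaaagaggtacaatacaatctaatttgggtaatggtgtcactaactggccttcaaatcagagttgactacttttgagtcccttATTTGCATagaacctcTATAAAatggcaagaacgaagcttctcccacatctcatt
Hist1h1a, chr13:23763418-23763665, + strand: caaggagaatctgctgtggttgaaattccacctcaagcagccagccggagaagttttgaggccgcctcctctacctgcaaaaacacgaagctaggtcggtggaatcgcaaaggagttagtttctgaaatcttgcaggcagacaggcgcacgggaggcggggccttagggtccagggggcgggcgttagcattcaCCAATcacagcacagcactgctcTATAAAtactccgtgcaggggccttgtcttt
Hist1h4n, chr13:21832198-21832447, - strand: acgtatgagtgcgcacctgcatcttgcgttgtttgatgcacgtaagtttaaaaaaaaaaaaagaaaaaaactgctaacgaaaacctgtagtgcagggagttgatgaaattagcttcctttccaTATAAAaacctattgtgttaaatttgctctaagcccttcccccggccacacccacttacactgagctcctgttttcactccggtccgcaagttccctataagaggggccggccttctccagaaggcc
Hist1h1c, chr13:23738557-23738806, + strand: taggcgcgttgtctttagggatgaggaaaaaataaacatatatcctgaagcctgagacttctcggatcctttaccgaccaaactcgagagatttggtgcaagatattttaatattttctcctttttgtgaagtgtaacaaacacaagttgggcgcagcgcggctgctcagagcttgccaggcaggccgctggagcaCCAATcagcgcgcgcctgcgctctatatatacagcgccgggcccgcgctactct

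In the 250 bases before the start, searched on both strands, CCAAT stood in 51 of 62 members against 33.8% of 32851 promoters of the genome. It was in 16 of 16 H2B and 18 of 18 H2A windows but in 3 of 12 H4 windows. TATAAA stood in 29 members against 12.4% of all promoters. The octamer ATTTGCAT stood in 13 members against 1.6%, 7 of them H2A and 6 H2B. No motif contains another, and a match describes the sequence only. In all, 15 pairs of members are transcribed away from each other with start sites 173 to 660 bases apart, and 14 of these pairs join an H2A with an H2B gene. Windows of such pairs can overlap, as for Hist1h2bg and Hist1h2ae, so the motif counts above include some sites for both genes.

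Depth was 26752780 to 58368283 counts per library, and 61 members were abundant enough to be tested among 15886 genes. Of the 8 others, Hist1h2aj, Hist1h2aa, Hist1h2ba and Hist2h3c1 were at 0 in all libraries. The transgene's product separated the groups: Il5 was at 317 to 523 CPM (counts scaled to library size by TMM) in IL5Tg, 664 to 724 in mdx_IL5Tg and 0.265 to 0.402 in mdx. Siglecf and Ccr3, surface markers of eosinophils, were at 129 CPM or more in every library. The summed CPM of 9 eosinophil genes was 5634 to 15734 in IL5Tg, 5060 to 5505 in mdx_IL5Tg and 2104 to 2892 in mdx, and the summed CPM of 6 fibroblast genes was 929 to 2191, 715 to 2873 and 4220.5 to 10631. The 9 eosinophil genes did not move together. Over IL5Tg, mdx_IL5Tg and mdx, Prg2 averaged 3766, 618 and 226 CPM and Siglecf 353, 520 and 157. Ccr3 averaged 968, 1372.5 and 1017 CPM, and Il5ra 60.2, 58.1 and 61.1. With sorted pools, fewer cells of a type and less RNA per cell cannot be told apart.

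Together the 69 members held 0.271% of all counts in IL5Tg S7 (95% Wilson interval 0.269 to 0.273, counting error only), 0.0752% in S8 and 0.137% in S9. In mdx_IL5Tg the share was 0.0992% in S1, 0.0879% in S2 and 0.0895% in S3. In mdx it was 0.0750% in S4, 0.138% in S5 and 0.0765% in S6. So 1 IL5Tg library held about as small a share as the lowest mdx libraries, and a different one stood above all the rest. The summed level averaged 1543 CPM ± 895 for IL5Tg, 1045 ± 93.5 for mdx_IL5Tg and 892 ± 396 for mdx (SD, n = 3 each). Wherever 3 CPM values of a group follow each other below, they stand for S7, S8 and S9 of IL5Tg, for S1, S2 and S3 of mdx_IL5Tg or for S4, S5 and S6 of mdx.

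**Figure D1:**
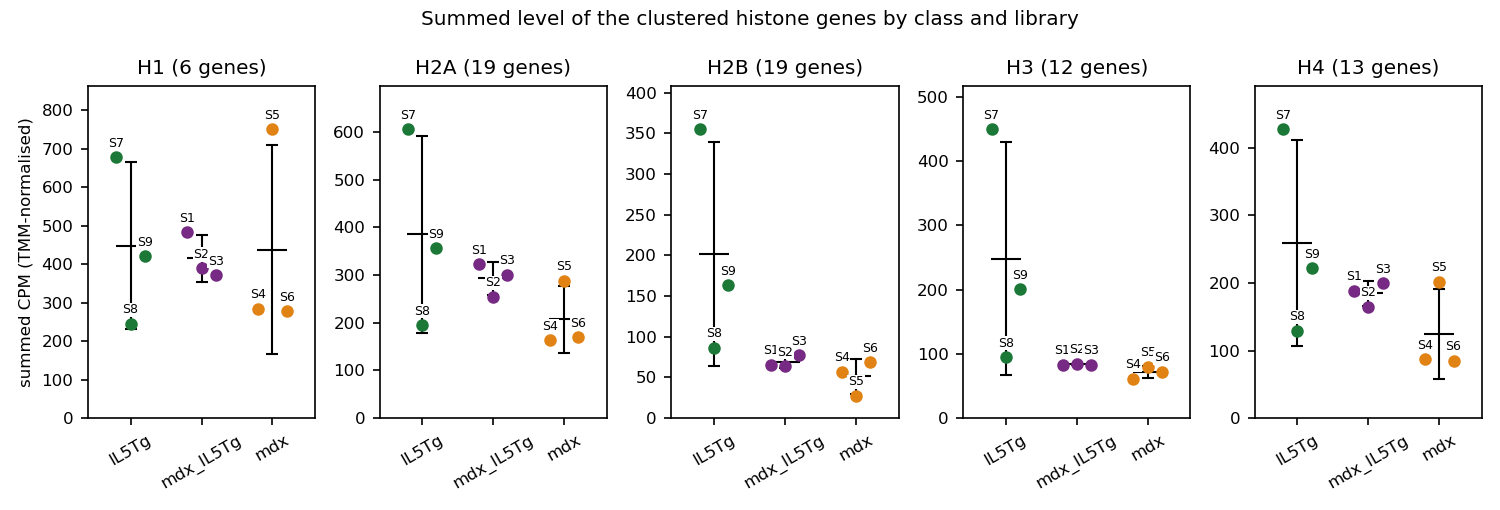
Summed CPM of each histone class (vertical axes, each with its own range) in every library, by group; points are libraries marked by S number and bars are the mean ± SD of 3. IL5Tg S7 is the highest of the 9 libraries for H2A, H2B, H3 and H4, mdx S5 is the highest for H1 and the lowest for H2B, and the 3 mdx_IL5Tg libraries lie close together.

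Against IL5Tg, the median change of the tested clustered histone genes was below 0 in both other groups and in all 5 classes, except that the H4 median in mdx_IL5Tg was 0.060 without S7 and 0.016 without S7 and S5 together. In mdx_IL5Tg against IL5Tg, 17 of 61 tested members fell and 0 rose (edgeR, adjusted p under 0.05), where 2.87% of all tested genes fell and 4.35% rose (7.22% in either direction). Their median log2 change was -1.64, beside -0.050 over all genes. In mdx against IL5Tg, 40 fell and 0 rose, where 8.96% of all genes fell and 11.8% rose (20.8% together), and the median was -1.77 beside 0.013. Both comparisons use the same 3 IL5Tg libraries. In mdx against mdx_IL5Tg, 3 fell and 0 rose, where 10.1% of all genes fell and 11.5% rose (21.6% together). The median there was -0.108, beside 0.132 over all genes, and it turned to 0.232, beside 0.455, when libraries were scaled by their totals only. That scaling also moved the median of all genes to -0.268 in mdx_IL5Tg against IL5Tg and to 0.116 in mdx against IL5Tg. It changed the split of all genes from 691 higher and 456 lower to 311 and 981 in the first of these, and from 1830 and 1603 to 4007 and 746 in mdx against mdx_IL5Tg.

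At an unadjusted p under 0.05, 39, 6 and 44 members passed in mdx_IL5Tg against IL5Tg, mdx against mdx_IL5Tg and mdx against IL5Tg. The 17 members that fell in mdx_IL5Tg were all among the 40 that fell in mdx, as were the 3 that fell between mdx_IL5Tg and mdx, and 21 were called in no comparison. All 3 libraries lay below all 3 of IL5Tg for 29 members in mdx_IL5Tg (16.4% of all genes) and for 29 in mdx (19.7% of all genes), and above it for 0 in mdx_IL5Tg (19.4%) and 0 in mdx (22.2%). Below mdx_IL5Tg, the 3 mdx libraries were lower without overlap for 11 members (18.8% of all genes) and higher for 1 (23.2%).

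Single libraries moved these counts. In mdx_IL5Tg against IL5Tg, 0 members were called without IL5Tg S7, without S9, or without mdx_IL5Tg S1 or S2, and 3 without S3, 28 without S8, 11 without mdx S4 and 26 without mdx S5. For mdx against IL5Tg, 15 were called without S7, 15 without mdx S4 and 25 without mdx S5. The 3 calls in mdx against mdx_IL5Tg became 0 without S1, 1 without S3 or S4, 5 without S8 and 6 without S5. Without IL5Tg S7 and mdx S5 together, the counts were 10, 14 and 20 in mdx_IL5Tg against IL5Tg, mdx against mdx_IL5Tg and mdx against IL5Tg, all lower, and the medians of the members were -0.81, -0.21 and -1.05.

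**Figure D2:**
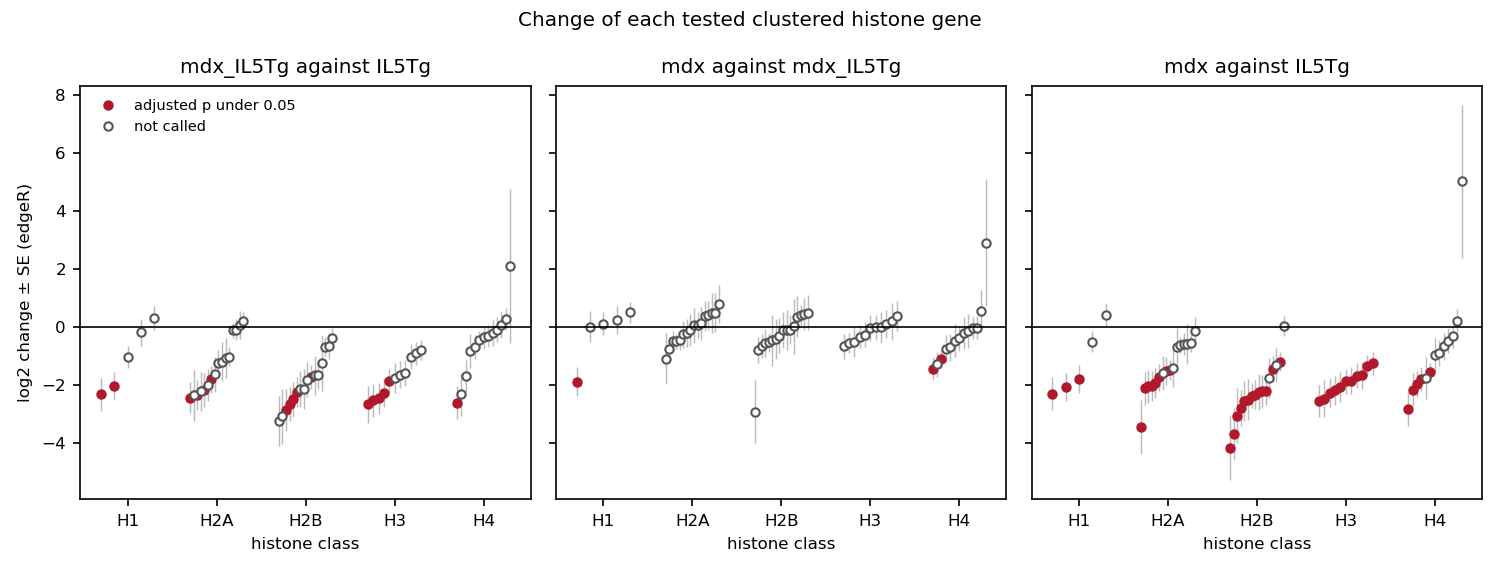
Log2 change ± SE (edgeR) of each of the 61 tested members, by class and comparison; filled points passed an adjusted p of 0.05. All 11 H3 genes fell in mdx against IL5Tg, no member rose in any comparison, and the wide bar high in H4 is Hist1h4m.

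Within IL5Tg the libraries differed in their counts from the histone genes. For the 61 tested members the median ratio of the highest to the lowest library was 4.59 in IL5Tg, beside 1.44 over all tested genes. It was 1.35 in mdx_IL5Tg beside 1.37, and 2.03 in mdx beside 1.505. In IL5Tg, S7 was the highest for 60 of 61 members and S8 the lowest for 59, and the order S7, S9, S8 held for 59 (96.7%), against 25.2% of all tested genes. S7 was not the highest for Hist1h4m, which was at 0 to 0.522 CPM in that group. The fitted biological coefficient of variation had a median of 0.416 for the members and 0.254 for all genes.

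S7 lay above the mean of S8 and S9 by a median of 1.51 log2 CPM for H1, 1.73 for H2A, 1.68 for H2B, 1.76 for H3 and 1.25 for H4, and by 0.027 over all tested genes. Summed, H3 was at 450, 94.95 and 201 CPM, and H2B at 355, 86.7 and 163. Each S8 value was still above all 6 libraries of the other groups for H3 and H2B, whose highest were 84.8 and 77.3. For H2A and H4, S8 lay inside the range of the other groups, and for H1 it was the lowest of all 9 libraries.

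Genes of dividing and immature cells were high in the same library. The summed level of 26 S phase and cycling genes was 1052, 377 and 553 CPM in the IL5Tg libraries, against 296 to 347 in mdx_IL5Tg and 330 to 393 in mdx. Mki67, a marker of cycling cells, was at 202, 44.3 and 87.8 CPM, the same order as the histones. Summed over 6 genes of immature granulocytes (Mpo, Elane, Prtn3, Ctsg, Ms4a3 and Cebpe), the level was 218 CPM in S7 against 56.9 in S8 and 53.9 in S9, and 61.7 to 71.1 and 40.4 to 77.0 in mdx_IL5Tg and mdx. Within that sum, Cebpe was at 52.4, 37.2 and 41.1 CPM in IL5Tg, 50.7 to 63.3 in mdx_IL5Tg and 33.3 to 45.8 in mdx. Mpo was at 96.3, 13.5 and 8.54 CPM in IL5Tg, 5.15 to 7.70 in mdx_IL5Tg and 1.13, 1.04 and 28.2 in mdx. Elane, Prtn3, Ctsg and Ms4a3 were also highest in S7 and, within mdx, in S6. The eosinophil granule gene Prg2 was at 6997, 1611 and 2690 CPM, and the sum of 8 neutrophil genes at 1297, 515 and 562. Lymphoid sums were low but also highest in S7. T and NK cell genes summed to 8.83, 3.797 and 4.436 CPM in IL5Tg. In mdx_IL5Tg they summed to 1.86 to 2.402 CPM and in mdx to 1.37 to 2.58. B and plasma cell genes summed to 37.3, 18.01 and 18.005 CPM in IL5Tg, 16.3 to 19.1 in mdx_IL5Tg and 11.4 to 15.3 in mdx. The part of any of these cells in the histone result was not tested. S9 ranked above S8 for the histones, cycling genes and Prg2, and below it for the sum of the immature granulocyte genes.

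The mdx library S5 stood apart by class. Its offset from the mean of S4 and S6 had a median of -1.71 log2 CPM for H2B, with 14 of 16 tested H2B genes below, and of 0.91 for H4, with 10 of 13 above. The medians were 0.48 for H1, 0.15 for H2A and 0.35 for H3, beside -0.084 over all tested genes. Summed H2B was at 27.8 CPM in S5 against 56.9 in S4 and 69.1 in S6, while H1 was at 751 against 285 and 277. Hist1h1c alone made up 47.8% of the members' counts in S5 and 13.9 to 33.7% in the other 8 libraries. The same library had the lowest share of mitochondrial counts (0.383%, against 1.28 to 2.29% elsewhere) and the highest fibroblast sum, 10631 CPM, and the part of either in these values was not tested.

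**Figure D3:**
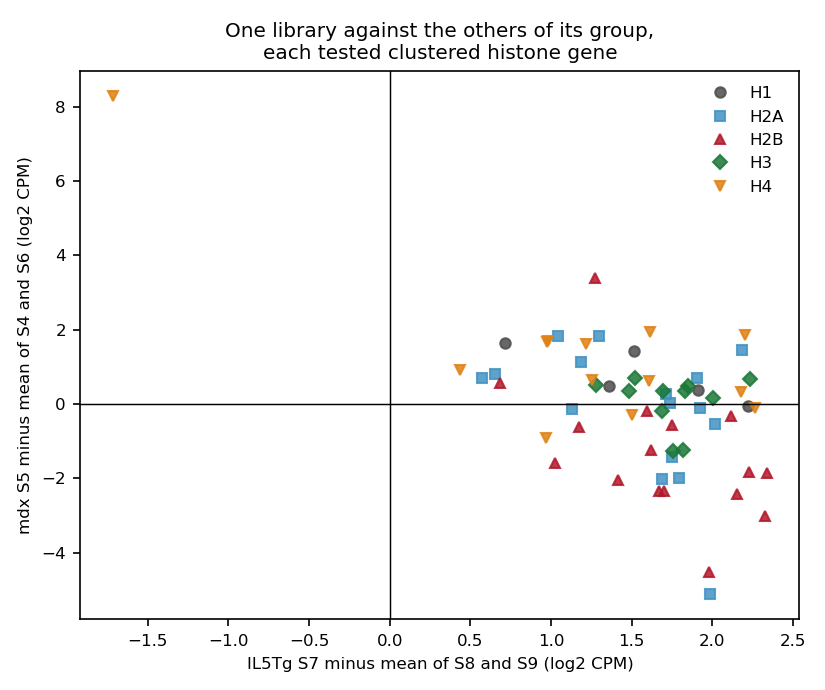
Offset of 1 library from the mean of the other two in its group for each tested member, in log2 CPM, with IL5Tg S7 across and mdx S5 up; symbols mark the classes. Nearly all points lie right of 0, while H2B genes lie mostly below 0 and H4 genes mostly above 0, and the point at the upper left is Hist1h4m.

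Among mdx_IL5Tg libraries the members varied about as much as other genes: their median SD was 0.23 log2 CPM, beside 0.24 over all tested genes. Summed H3 was at 83.2, 84.8 and 83.4 CPM in S1, S2 and S3. The widest member was Hist1h4m, followed among H2B by Hist1h2br at 7.98, 0.957 and 2.45 CPM. Hist1h2bq, with the same 250 bases before its start, ran in the opposite order at 3.24, 8.26 and 5.59 CPM. Hist1h4m summed with its identical copy Hist1h4n was at 36.5, 32.0 and 36.6 CPM. The part of reads shared between such genes in these spreads was not tested. Each library was the highest for 20 or 21 of 61 members.

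The make-up of the histone counts was also set side by side. Of the members' summed CPM, H2B held 14.1, 11.5 and 12.0% for IL5Tg, 5.72 to 7.48% for mdx_IL5Tg and 8.70, 2.06 and 10.3% for mdx. H3 held 12.6 to 17.9% in IL5Tg, 7.28 to 8.85% in mdx_IL5Tg and 5.96 to 10.8% in mdx. H1 held 27.0 to 32.7% in IL5Tg and 36.0 to 55.7% in the other groups. These H2B, H3 and H1 shares did not overlap between IL5Tg and either other group, S8 included. H2A held 24.1 to 26.1% in IL5Tg, 26.6 to 29.1% in mdx_IL5Tg and 21.3 to 25.1% in mdx, which overlaps IL5Tg. H4 held 16.2 to 17.2% in IL5Tg and 12.6 to 15% in mdx. In mdx_IL5Tg it held 16.5 to 19.3%, which overlaps IL5Tg. The class shares of a library are parts of the same sum, so they are not separate results.

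**Figure D4:**
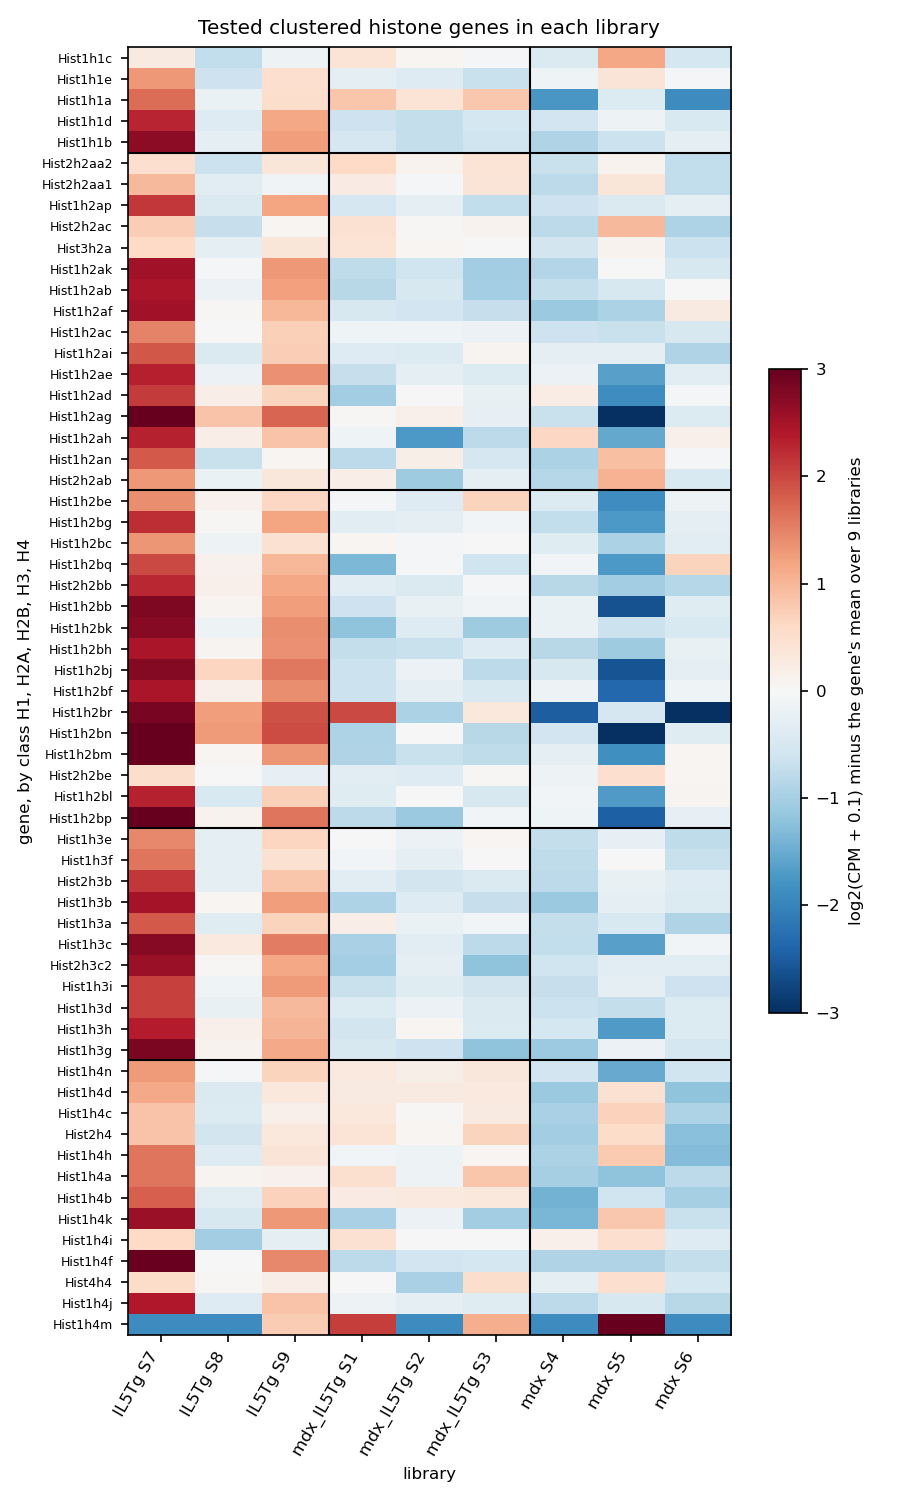
Log2(CPM + 0.1) of each tested member minus its mean over the 9 libraries, with genes in rows by class and by falling mean level; red is above the mean and blue below, capped at 3. IL5Tg S7 is red in nearly every row, mdx S5 is blue mostly in H2B rows, and the mdx_IL5Tg columns look alike.

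H1 genes encode linker histones, which bind the DNA between nucleosomes. Per kilobase of exon, Hist1h1c had the highest mean level of the class, 201 CPM per kb, followed by Hist1h1a at 38.0. This rank, like those per kilobase below, depends on the annotated length of the gene models. Hist1h1e had 31.5 CPM per kb with a model of 1930 exon bases, against 741 for Hist1h1a. Hist1h1c was at 350, 174 and 261 CPM for IL5Tg, 385, 305 and 285 for mdx_IL5Tg and 214, 645 and 202 for mdx. The groups overlap and only S5 stands high, with a log2 change of 0.43 ± 0.41 in mdx against IL5Tg (SE, edgeR adjusted p = 0.476). Without S7 and S5 its sign in mdx against mdx_IL5Tg turned, from 0.12 to -0.65 (adjusted p = 0.0408).

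Hist1h1a was at 69.5, 19.0 and 31.1 CPM for IL5Tg, 38.4, 28.8 and 37.9 for mdx_IL5Tg and 6.41, 16.4 and 5.81 for mdx. All mdx libraries lie below the other 6. It fell by 1.88 on the log2 scale in mdx against mdx_IL5Tg (edgeR adjusted p = 0.0228) and by 2.07 against IL5Tg (adjusted p = 0.0159), and between mdx_IL5Tg and IL5Tg the change was -0.19 (adjusted p = 0.837). The first call ended without mdx_IL5Tg S1 or S3 or mdx S4 or S6, and the second without IL5Tg S7 or mdx S4. Hist1h1b and Hist1h1d, chosen after their values were seen, fell in both groups against IL5Tg, by 2.32 and 2.03 in mdx_IL5Tg and by 2.30 and 1.79 in mdx. In mdx their libraries overlap with IL5Tg, whose S8 was at 6.10 and 11.3 CPM against 6.17 in S6 for Hist1h1b and 13.5 in S5 for Hist1h1d. The H1 members that fell against IL5Tg, 2 in mdx_IL5Tg and 3 in mdx, depended on single libraries. The first count was 0 without S7, S9, S1, S2, S3, S4 or S6, and 3 without S8. The second was 0 without S4 or with only the compared groups fitted, 1 without S7 or S5, and 2 without S6. Hist1h1e, at 136, 36.0 and 77.8 CPM for IL5Tg, 34.6 to 45.3 for mdx_IL5Tg and 50.3 to 71.8 for mdx, was not called, with changes of -1.03 and -0.51 against IL5Tg.

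H2A genes encode the partner of H2B in the nucleosome. The neighbours Hist2h2aa1 and Hist2h2aa2 have the same coding sequence, so reads can be moved between them, and their sum is the safer value. Their models also overlap other genes by position, among them Gm20632 and Gm20633, and the part of those in the sum was not tested. Summed, Hist2h2aa1 and Hist2h2aa2 were at 291, 125 and 204 CPM for IL5Tg, 247, 183 and 236 for mdx_IL5Tg and 108, 206 and 107 for mdx. The groups overlap, and neither gene was called in any comparison (adjusted p = 0.0913 for Hist2h2aa2 in mdx against mdx_IL5Tg, log2 -0.77). Of 16 tested H2A members, 4 fell in mdx_IL5Tg and 8 in mdx against IL5Tg, all 8 of them in Hist1. The count in mdx was 1 without S7, 2 without mdx S4, 4 without mdx S5 and 5 without mdx S6. The count in mdx_IL5Tg was 0 without S7, S9, S1, S2 or S3, 2 without S4, 7 without S8 and 6 without S5.

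Hist1h2ak had the smallest p of all members in mdx_IL5Tg against IL5Tg. Its level was 37.7, 6.26 and 15.99 CPM for IL5Tg, 3.79, 4.23 and 3.08 for mdx_IL5Tg and 3.45, 6.49 and 4.65 for mdx. IL5Tg lies above mdx_IL5Tg, and mdx S5 slightly above S8. The gene fell by 2.43 (edgeR adjusted p = 0.0286) and 2.04 (adjusted p = 0.0193), and the first call ended without S7, S9 or any 1 mdx_IL5Tg library, the second without S7, mdx S4 or mdx S6. Hist1h2ap, with Hist1h2ao identical to it in coding sequence and nearly uncounted, was at 75.2, 12.9 and 39.2 CPM in IL5Tg and 10.3 to 14.3 in the other groups. It fell by 1.80 and 1.73 (edgeR adjusted p = 0.0447 and 0.0246), calls that ended without S7, the first also without any other single library except S8, and the second without any 1 mdx library. Hist1h2aa, a germline type, was at 0 throughout.

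H2B genes encode the partner of H2A. In mdx against IL5Tg, 13 of 16 tested H2B members fell, with a median of -2.29, and 5 fell in mdx_IL5Tg against IL5Tg, with a median of -1.97. Leaving out IL5Tg S7 made these counts 4 and 0, leaving out mdx S5 made them 6 and 11, and leaving out mdx S4 made them 5 and 3. The count in mdx_IL5Tg was also 0 without S9, S1 or S2, and 2 without S3. Hist1h2bg, whose promoter is printed above, had the highest level of the class per kilobase (30.2 CPM per kb). It was at 64.4, 13.99 and 31.2 CPM for IL5Tg, 10.8, 11.3 and 12.8 for mdx_IL5Tg and 8.14, 4.08 and 11.4 for mdx. IL5Tg lies above both other groups. The gene fell by 2.21 in mdx against IL5Tg (edgeR adjusted p = 0.011), a call that ended without S7 and S5 together, and was at -1.65 in mdx_IL5Tg (adjusted p = 0.0615).

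Hist2h2bb, in the Hist2 cluster, kept its call in mdx against IL5Tg under all 19 alternatives. It was at 26.0, 6.004 and 12.2 CPM for IL5Tg, 4.23, 3.93 and 5.14 for mdx_IL5Tg and 2.97, 2.58 and 2.92 for mdx. Its gene model overlaps those of Gm20628 and Gm42743 by position, and how reads there were assigned was not tested. The 3 groups do not overlap for Hist2h2bb. It fell by 2.38 in mdx against IL5Tg (edgeR adjusted p = 0.00387, at most 0.0176 under all 19 alternatives) and by 1.73 in mdx_IL5Tg (adjusted p = 0.0373), a call lost without S7, S9, S1, S2 or S6. Hist1h2bc, which also gives polyadenylated mRNA, was at 26.3, 9.48 and 14.3 CPM for IL5Tg, 10.1 to 10.9 for mdx_IL5Tg and 5.36 to 8.37 for mdx. In mdx against IL5Tg it fell by 1.20 (edgeR adjusted p = 0.0272), a call that ended without S7 or S5 and with totals only. Hist1h2be, whose model overlaps Hist1h1e, fell by 1.45 in mdx against IL5Tg (adjusted p = 0.0425), a call that ended without S7, S9, S4 or S5.

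Divergent neighbours were set side by side. In 11 pairs both members were tested, and 1 of these, Hist1h2bh with Hist1h3f, joins an H2B with an H3 gene and is included in each count that follows. Both fell in mdx against IL5Tg in 6 pairs and 1 member in 4, and in mdx_IL5Tg against IL5Tg both fell in 0 pairs and 1 member in 5. Hist1h2ag and Hist1h2bj, with start sites 270 bases apart, fell by 3.45 and 2.79 in mdx against IL5Tg. Their S5 offsets were -5.11 and -2.33 log2 CPM, and Hist1h2ag had 0 counts in S5. In 4 pairs the S5 offsets had opposite signs, as for Hist1h2an (1.46) and Hist1h2bp (-3.02), whose start sites are 243 bases apart. These pairs were chosen after their values were seen.

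H3 genes encode the core histone that carries many of the marks on chromatin. All 11 tested H3 members fell in mdx against IL5Tg, from -1.25 for Hist1h3f to -2.54 for Hist1h3c, and 5 fell in mdx_IL5Tg against IL5Tg. Without S7 the first count was 5, without mdx S5 or S6 it was 6, and without mdx S4, or S7 and S5 together, it was 4. The second was 0 without S7, S9, S1 or S2, 1 without S3 and 8 without S8. Per kilobase the highest was Hist2h3b (39.7 CPM per kb), at 66.5, 12.7 and 27.5 CPM for IL5Tg, 12.3, 10.4 and 11.4 for mdx_IL5Tg and 8.84, 13.0 and 11.7 for mdx. S8 lies just above mdx_IL5Tg and just below mdx S5, and the gene model overlaps Gm20628. Hist2h3b fell by 1.67 in mdx (edgeR adjusted p = 0.0265), a call that ended without S7 or any 1 mdx library, and its change in mdx_IL5Tg was -1.64 (adjusted p = 0.0529).

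Hist2h3c2 was at 43.3, 7.24 and 15.9 CPM for IL5Tg, 3.44, 5.72 and 2.98 for mdx_IL5Tg and 4.63, 5.66 and 5.52 for mdx. IL5Tg lies above both groups. It fell by 2.45 and 2.07 (edgeR adjusted p = 0.0295 and 0.0196), and each call ended without S7, the first also without S9 or any 1 mdx_IL5Tg library and the second without S4 or S5. Its identical neighbour Hist2h3c1 was at 0, so the value stands for both. Hist1h3e was at 51.7, 15.3 and 29.5 CPM in IL5Tg and 11.4, 15.998 and 11.0 in mdx, where S5 lies above S8, and fell by 1.33 (adjusted p = 0.0227), a call that ended without S7, S4 or S6. Hist1h3f fell by 1.25 (adjusted p = 0.0476), a call that ended without any single library other than S8.

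H4 genes encode a highly conserved core histone. Against IL5Tg, 1 of 13 fell in mdx_IL5Tg and 5 of 13 in mdx, with medians of -0.36 and -0.97, and 8 fell in mdx when mdx S5 was left out. Hist1h4f was the 1 called in both. It was at 39.1, 4.90 and 13.4 CPM for IL5Tg, 2.78, 3.27 and 3.37 for mdx_IL5Tg and 2.55, 2.58 and 2.97 for mdx. IL5Tg lies above both groups, S8 by a small margin. It fell by 2.61 in mdx_IL5Tg (edgeR adjusted p = 0.0297), a call that ended without S7, S9 or any 1 mdx_IL5Tg library, and by 2.82 in mdx (adjusted p = 0.00716), a call that held without each single library.

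Hist1h4n, with the highest level of the class per kilobase (75.6 CPM per kb), was lower in mdx than in both other groups. It was at 69.0, 27.5 and 45.3 CPM for IL5Tg, 35.0, 32.0 and 35.9 for mdx_IL5Tg and 19.0, 10.01 and 18.9 for mdx, so that mdx lies below the other 6 libraries. It fell by 1.56 against IL5Tg (edgeR adjusted p = 0.00718, at most 0.0301 under all 19 alternatives) and by 1.10 against mdx_IL5Tg (adjusted p = 0.0316). That second call ended without mdx_IL5Tg S1 or mdx S5, with libraries scaled by totals only, and with no filter. Its coding sequence is identical to that of Hist1h4m, which had 0 counts in S7, S8, S2, S4 and S6, and 16.6 CPM in S5. Summed over the pair, S5 is at 26.6 CPM against 19.0 in S4 and 18.9 in S6, where Hist1h4n alone has S5 the lowest of mdx. The sum was 69.0, 27.5 and 45.8 CPM in IL5Tg and 36.5, 32.0 and 36.6 in mdx_IL5Tg, above mdx in every library.

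Hist1h4a was at 35.5, 12.3 and 12.7 CPM for IL5Tg, 16.1, 10.4 and 20.7 for mdx_IL5Tg and 5.72, 4.99 and 6.68 for mdx. All mdx libraries lie below the rest. It fell by 1.44 against mdx_IL5Tg (edgeR adjusted p = 0.0288) and by 1.80 against IL5Tg (adjusted p = 0.0119). The first call ended without S1, S3, S4 or S5, with libraries scaled by totals only, and with no filter. The second held without each single library and ended with no filter. Hist1h4c and Hist1h4d were not called in any comparison, and in mdx both had S5 highest, at 43.9 and 38.2 CPM against 12.0 to 14.1 in S4 and S6. Hist1h4i, at 2.76 to 8.70 CPM over the 9 libraries, was likewise not called.

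Members listed as giving polyadenylated mRNA in non-dividing cells were 5. Of the 4 tested, 0 were called in mdx_IL5Tg against IL5Tg or in mdx against mdx_IL5Tg, and Hist1h2bc fell in mdx against IL5Tg. Over all tested genes, 7.22%, 21.6% and 20.8% were called in these comparisons. With only 4 genes, the counts cannot be told from those shares. The median changes of the 4 genes were -0.25, -0.19 and -0.29. Hist3h2a was at 19.8, 10.6 and 16.7 CPM in IL5Tg and 8.20 to 17.1 in the other groups, and Hist2h2be at 1.01 to 2.02 throughout. In annotation, the 19 tested members whose transcript model runs 100 bases or more past the hairpin had a median change of -0.91 in mdx_IL5Tg against IL5Tg, and the 21 whose model ends within 100 bases had -2.14. The medians in mdx against IL5Tg were -1.33 and -1.97. In these 2 comparisons, the 13 whose model ends within 20 bases of the stop codon had -1.86 and -1.87. The 8 with no hairpin match had -0.96 and -1.73. These sets also differ in class, and the part of the transcript end was not tested. The germline genes Hist1h2aa, Hist1h2ba and Hist1h1t were at 0 or had at most 0.298 CPM.

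Near-identical copies limit what a single gene can show. Coding sequences of 8 members are identical to another member's, and 47 of 67 are at least 95% identical to one. Counts were estimated by sharing such reads, so class sums carry less of this uncertainty than single genes.

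Of 18 genes for histone mRNA processing and transcription, 0 were called in mdx_IL5Tg against IL5Tg, where 3 had an unadjusted p under 0.05. Over all tested genes, 7.22% were called there. In mdx against mdx_IL5Tg, 2 fell, Slbp and Lsm10, a subunit of the particle that cuts the mRNA's end. That is about the share over all tested genes, of which 10.1% fell. Slbp was at 69.5, 64.3 and 77.7 CPM for IL5Tg, 81.2, 72.0 and 78.4 for mdx_IL5Tg and 50.1, 59.1 and 51.6 for mdx, where all 3 libraries lie below the other 6. It fell by 0.53 against mdx_IL5Tg (edgeR adjusted p = 0.0145), a call that held without each single library and ended when libraries were scaled by totals only. It fell by 0.40 against IL5Tg (adjusted p = 0.0452), a call that ended without S7, S8, S9, S1, S2, S4 or S6.

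Of 11 replication-independent histone variants outside the clusters, 0 were called in mdx_IL5Tg against IL5Tg, with a median of 0.28, and 2 had an unadjusted p under 0.05. Of all tested genes, 7.22% were called there. H3f3a, which encodes an H3 used outside S phase, fell in mdx by 0.79 against mdx_IL5Tg (edgeR adjusted p = 0.00287, at most 0.0318 under all 19 alternatives), from 765 to 867 CPM to 410 to 518. Cenpa, the centromeric H3, fell by 0.56 in that comparison (adjusted p = 0.0158), a call that ended with totals only. Against IL5Tg, in mdx, H3f3a and Cenpa fell by 0.52 and 0.47. Both calls ended with totals only, and the call on Cenpa also without S8, S9, S4 or S5. H1fx, at under 1 CPM, rose there by 1.70 (edgeR adjusted p = 0.0448), a call that ended on leaving out each of the 9 libraries in turn.

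Of 16 histone chaperones, Asf1b and Chaf1b fell in mdx_IL5Tg against IL5Tg, where 2.87% of all tested genes fell. Asf1b, which hands H3 and H4 to the assembly machinery, was at 9.31, 2.17 and 3.84 CPM for IL5Tg, 0.731, 0.881 and 0.600 for mdx_IL5Tg and 1.61, 1.14 and 1.59 for mdx. Neither other group overlaps IL5Tg. Chaf1b fell by 0.89 (edgeR adjusted p = 0.0487), a call that ended without any single library other than mdx S5. Asf1b fell by 2.79 in mdx_IL5Tg (edgeR adjusted p = 0.0154), a call that ended without S1 and held without S7, and by 1.81 in mdx (adjusted p = 0.0217), a call that ended without S7 or S5. In mdx against mdx_IL5Tg, where 11.5% of all tested genes rose and 10.1% fell, Hat1 and Tonsl rose and Rbbp4 fell. Each lost its call without S1, and Rbbp4 also with totals only. Hat1 and Tonsl also lost theirs without S9, S2, S3, S4 or S6, and Hat1 without S8. Further, in mdx against IL5Tg Hat1 rose, without a call when S8 or S9 was left out.

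Of 26 S phase and cycling genes, 10 fell in mdx_IL5Tg against IL5Tg and 0 rose, with a median of -1.18. Over all tested genes, 2.87% fell and 4.35% rose. Without S7 or S2, 1 fell, without S1, 0, without S9 or S3, 4, and without S4 or S6, 6. The cycling genes Top2a and Mki67 fell by 2.22 and 2.96 (edgeR adjusted p = 0.0229 and 0.0355), calls that ended without S7, S1, S2 or S3, and for Mki67 also without S9 or S4. Tyms, for thymidylate synthesis, fell by 2.69 (adjusted p = 0.0179), a call that ended without S1. Of the same genes, 5 fell in mdx against IL5Tg with a median of -0.77, where 8.96% of all tested genes fell. That count was 2 without S7, with a median of -0.32, 1 without mdx S4 or S5, 8 without S3 and 15 without S8. Ccne2, the cyclin of S phase entry, was at 23.0, 5.91 and 8.95 CPM for IL5Tg, 7.999, 6.65 and 7.70 for mdx_IL5Tg and 2.72, 2.31 and 3.35 for mdx. It fell by 2.17 against IL5Tg (edgeR adjusted p = 0.00603, at most 0.0254 under all 19 alternatives). Against mdx_IL5Tg it fell by 1.41 (edgeR adjusted p = 0.0367), a call that ended without S1, S4 or S5 and with totals only.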

How the data were processed

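RNA was measured in 9 libraries of sorted eosinophils. The values are expected counts per gene that the authors deposited without normalisation. The build mm10, RSEM 1.3.0, STAR 2.5.3, cutadapt 2.10 and limma are listed in the submitters' processing notes. No source used here gives their settings, annotation or strandedness. Values were rounded, 6.03% of them having a fractional part. Column names tie a library to its group and an S number only. Genes were kept with edgeR's filterByExpr (minimum count 10), scaled by TMM and tested with edgeR 4.0.16 in R 4.3.3 (quasi-likelihood, robust, all 9 libraries in 1 fit, Benjamini-Hochberg over 15886 genes, threshold 0.05). CPM use TMM-scaled totals; offsets and SDs use log2 CPM with a prior count of 2. Changes are log2 with the standard error; share intervals are Wilson. Alternatives were DESeq2 1.42.0, limma 3.58.1 voom (also with quality weights), library totals, RLE factors, no filter, a filter of 50 counts in 3 libraries, no mitochondrial genes, only the groups compared and each library left out. Added after seeing the data were leaving out S7 and S5 together and leaving out Hist1h1c. The fit was tested on simulated data. Gene models came from GENCODE M21, matched by identifier, with 54079 of 54146 found, and promoters from RefSeq by position and synonym. The symbol rule keeps Hist3h2bb-ps, which has no number after -ps.

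The members and lists were chosen with earlier results of these data known. Members described singly were the 3 of each class with the highest mean CPM, the 3 with the smallest p in each direction and comparison, and the polyadenylated and germline lists. From the other lists up to 3 genes with the smallest p per comparison were eligible. The p-values set group differences against a fitted spread between samples that all libraries share. The spread within a group was described and not tested.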

Additional observations from a re-analysis of the deposited data

How the results depend on the processing

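No paired analysis was possible because the count columns carry no replicate numbers of the titles, only a group and an S number. Members called lower in mdx_IL5Tg against IL5Tg (17) numbered 30 with DESeq2, 4 with limma voom, 32 with quality weights, 6 with no filter, 10 without S7 and S5 together, and 0 to 28 when each library was left out. In mdx against mdx_IL5Tg (3) they were 5, with DESeq2 and with only the groups compared, 13 with quality weights, 1 with library totals, 0 with no filter, 14 without S7 and S5, and 0 to 6 over the left-out libraries. In mdx against IL5Tg (40) they were 23 with voom, 12 with no filter, 24 with only the groups compared, 20 without S7 and S5, and 15 to 42 over the left-out libraries. No member was called higher under any of the 19 alternatives. Of 22 calls on members described singly, 2 held under all 19, Hist2h2bb and Hist1h4n in mdx against IL5Tg, and 17 ended when 1 library was left out. For the 50 uncalled results on these members, 38 of 946 alternative values passed the threshold in the same direction and 1 turned its sign and passed, Hist1h1c in mdx against mdx_IL5Tg. The cause was not tested.

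All genes called higher in mdx_IL5Tg against IL5Tg (691) were 1207 with DESeq2, 2100 with quality weights, 311 with library totals, 1123 with only the groups compared, 1122 without S7 and S5, and 108 to 1557 over left-out libraries. Lower (456), they were 1257, 2197, 981 and 693 in the first 4 of these, 785 with no filter and 2 to 1084 over left-out libraries. In mdx against mdx_IL5Tg, quality weights gave 3981 higher and 2958 lower, library totals 4007 and 746, only the groups compared 1188 higher, and left-out libraries 429 to 2035 higher. In mdx against IL5Tg, quality weights gave 3030 higher and 2474 lower, DESeq2 2207 lower, and left-out libraries 948 to 1900 higher. The highest over the lowest summed CPM was 3.34 in IL5Tg, 1.19 in mdx_IL5Tg and 2.06 in mdx. It was 3.61, 1.13 and 1.84 with library totals, 3.798, 1.16 and 1.62 without the polyadenylated list, 3.74, 1.16 and 1.60 without Hist1h1c, and 1.81 to 3.34, 1.08 to 1.19 and 1.03 to 2.06 with a library left out. With 3 libraries a group and near-identical copies, depth is not the only limit on single genes.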
